A study of Mus musculus with 8 samples.

Results

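The choroid plexus is a sheet of secretory epithelium inside the brain ventricles that makes most of the cerebrospinal fluid. Its cells move sodium, potassium, chloride, bicarbonate and water from blood to ventricle, carry folate and other nutrients across, and release carrier proteins and signalling antagonists into the fluid. The lateral ventricles, which hold part of this tissue, run along the striatum. The genes described here are 10 secretory and transport genes of this epithelium: Ttr, Enpp2, Sostdc1, Kl, Folr1, Aqp1, Kcnj13, Clic6, Slc4a5 and the transcription factor gene Otx2. They were taken as the probe sets to which the array annotation gives exactly 1 of these symbols. This found 1 probe set for each of 9 genes, out of 19938 genes that have such a probe set. Enpp2, which encodes autotaxin, an enzyme that makes lysophosphatidic acid, had none and was not analysed here.

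RNA came from the striatum of both brain sides of 8 male C57BL/6 mice, an inbred strain, which were 6 weeks old at the start, with 1 whole-transcript array per mouse and 2 mice in each of 4 groups. The MPTP group received MPTP, a neurotoxin that damages dopamine axons of the striatum, by injection into the abdomen at 20 mg/kg every 24 h for 4 weeks. The acupoint group received the same MPTP and was needled on both sides, to a depth of 3 mm at GB34 and 1 mm at LR3, in 14 sessions 48 h apart. The non-acupoint group received the same MPTP and was needled at both hips to 3 mm on the same schedule. The control group received saline injections for 4 weeks. No dissection borders are given in the sources used here. The values are log2 RMA values, in which background and array distributions were already adjusted by the authors. A difference of 1 is a 2-fold difference, and levels of different probe sets are not compared with each other.

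The labelled tissue could be checked against its own markers. Medium spiny neurons are the main neurons of the striatum, and the mean of 11 of their marker genes lay between -0.68 and 0.36 log2 units of the control mean in 7 of the 8 arrays. In MPTP mouse 1 it was -2.14, while 11 thalamus markers averaged 2.49 there, so the comparisons that include the MPTP mice are also given without it. The thalamus mean was also raised in non-acupoint mouse 2, at 1.53, where the medium spiny neuron mean was -0.68. It was 0.72 in acupoint mouse 1 and 0.18 in non-acupoint mouse 1, and -0.56 and -0.10 in MPTP mouse 2 and acupoint mouse 2.

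All 9 genes separated the 8 arrays in the same way. MPTP mouse 1, acupoint mouse 1 and both non-acupoint mice had the 4 highest values of every one of the 9 genes, and MPTP mouse 2, acupoint mouse 2 and both controls had the 4 lowest. This split ran through the MPTP group and through the acupoint group. In bulk tissue, fewer cells of a type and less RNA per cell cannot be told apart.

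**Figure D1:**
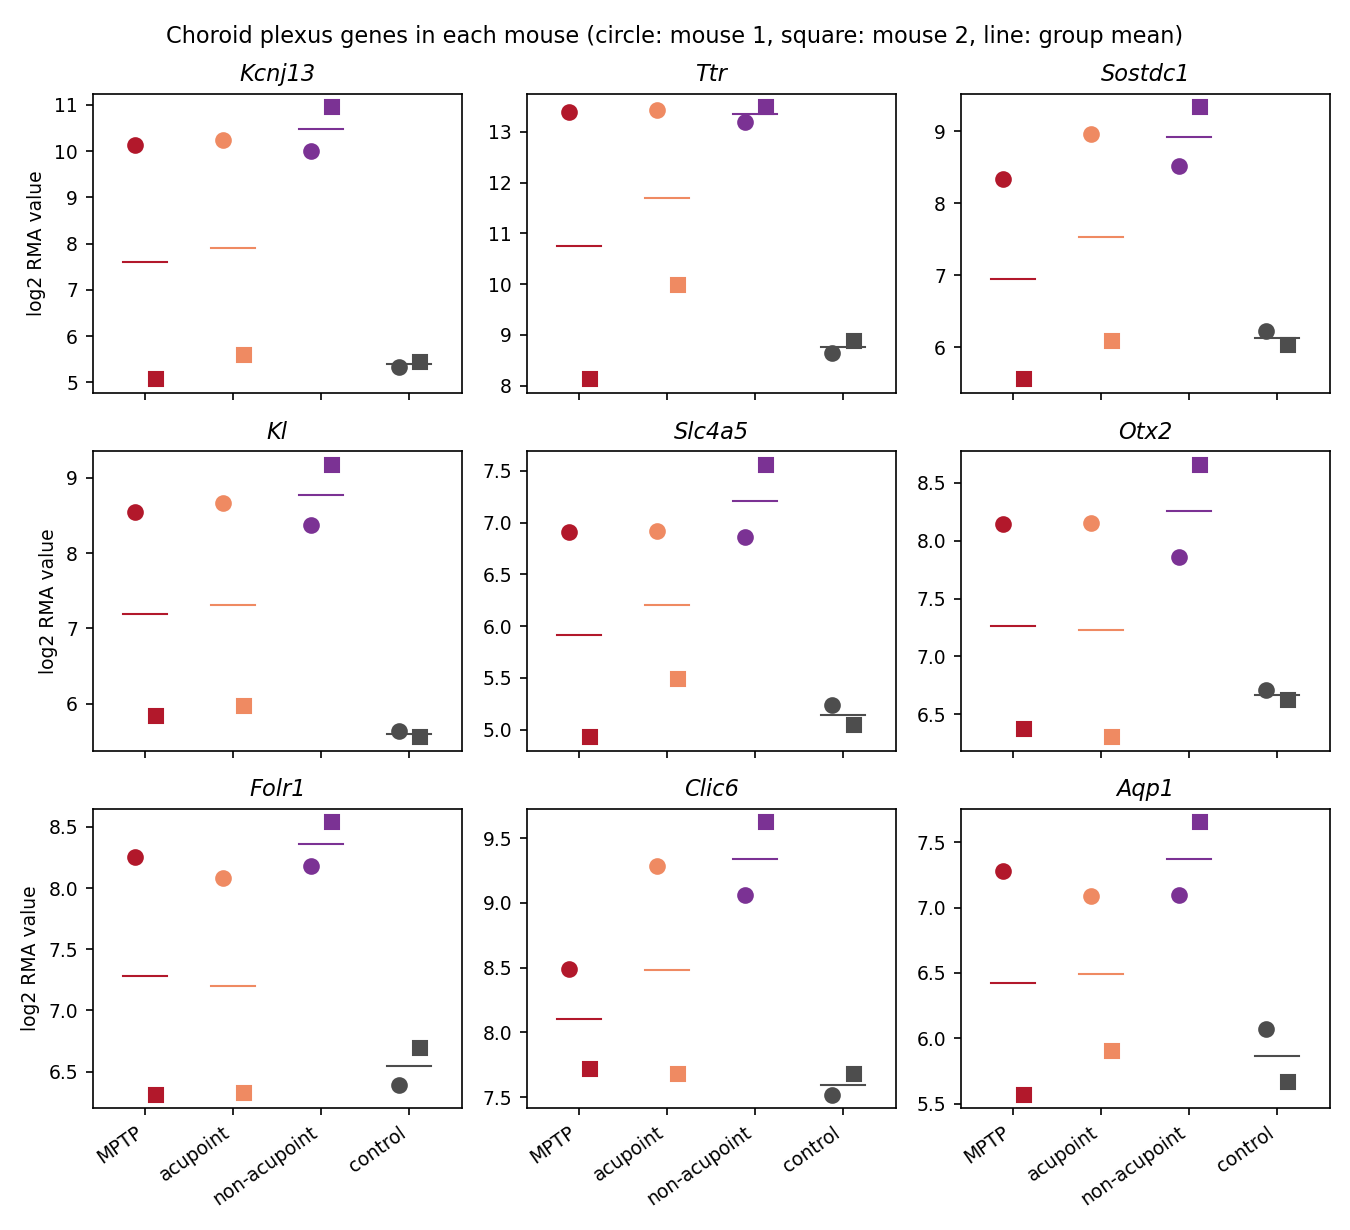
Log2 RMA values (y axes, scaled per gene) of the 9 choroid plexus genes in the 2 mice of each group (x axes), with circles for mouse 1, squares for mouse 2 and a line at the group mean. In every panel the MPTP and acupoint groups each hold 1 high and 1 low mouse, both non-acupoint mice are high and both controls are low.

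Among the secreted products, Ttr (probe set 10454192) encodes transthyretin, which carries thyroid hormone and, with retinol-binding protein, retinol. Its log2 values were 13.39 and 8.12 in MPTP mice, 13.42 and 9.98 in acupoint mice, 13.20 and 13.49 in non-acupoint mice and 8.63 and 8.88 in controls. The 4 high arrays lay within 0.29 of each other, close to the top of the scale, where the highest probe set of an array reached 14.33 to 14.43, while the 4 low arrays spread over 1.86. Acupoint mouse 2 was 1.22 above the control mean, and MPTP mouse 2 was the lowest of all.

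Sostdc1 (probe set 10395389) encodes a secreted antagonist of BMP signalling that also modulates Wnt signalling. Its log2 values were 8.34 and 5.55 in MPTP mice, 8.96 and 6.09 in acupoint mice, 8.51 and 9.34 in non-acupoint mice and 6.22 and 6.03 in controls. MPTP mouse 2 was again lowest, and acupoint mouse 2 lay between the 2 controls.

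Kl (probe set 10527870) encodes klotho, a co-receptor for a fibroblast growth factor hormone whose outer part is also shed into cerebrospinal fluid. It had log2 values of 8.55 and 5.84 in MPTP mice, 8.67 and 5.96 in acupoint mice, 8.37 and 9.17 in non-acupoint mice and 5.64 and 5.55 in controls. Unlike Sostdc1, Kl was above both controls in all 6 MPTP-treated mice, although by only 0.24 and 0.37 over the control mean in MPTP mouse 2 and acupoint mouse 2.

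Folr1 (probe set 10566034) encodes folate receptor alpha, which takes folate through the epithelium into the fluid. Its log2 values were 8.25 and 6.31 in MPTP mice, 8.08 and 6.32 in acupoint mice, 8.18 and 8.54 in non-acupoint mice and 6.39 and 6.70 in controls. The low MPTP and acupoint mice were both below both controls.

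The ion and water transporters held the widest and the narrowest ranges. Kcnj13 (probe set 10356403) encodes an inward rectifier potassium channel of the epithelium. It had log2 values of 10.13 and 5.06 in MPTP mice, 10.23 and 5.59 in acupoint mice, 10.01 and 10.95 in non-acupoint mice and 5.34 and 5.45 in controls. The gap between the fourth and the fifth highest array was 4.41, and no array fell inside it.

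Slc4a5 (probe set 10539393) encodes a sodium bicarbonate cotransporter. Its log2 values were 6.91 and 4.93 in MPTP mice, 6.92 and 5.49 in acupoint mice, 6.86 and 7.56 in non-acupoint mice and 5.24 and 5.05 in controls. Both controls and MPTP mouse 2 lay under 5.25, the mean that a probe set needed over the 8 arrays to be tested, so this gene passed through its high arrays.

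Aqp1 (probe set 10538459) encodes the water channel of the epithelium's ventricular face. Its log2 values were 7.28 and 5.57 in MPTP mice, 7.09 and 5.90 in acupoint mice, 7.10 and 7.65 in non-acupoint mice and 6.07 and 5.67 in controls. The gap between high and low arrays was 1.02, and acupoint mouse 2 again lay between the controls.

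Clic6 (probe set 10436958) belongs to the chloride intracellular channel family. Log2 values of Clic6 were 8.49 and 7.72 in MPTP mice, 9.29 and 7.68 in acupoint mice, 9.06 and 9.62 in non-acupoint mice and 7.52 and 7.68 in controls. MPTP mouse 1 stood only 0.78 above the highest of the low arrays, the smallest such gap of the 9 genes.

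Otx2 (probe set 10419356) encodes a homeobox transcription factor that the mouse choroid plexus needs to form. Otx2 had log2 values of 8.15 and 6.37 in MPTP mice, 8.16 and 6.30 in acupoint mice, 7.86 and 8.66 in non-acupoint mice and 6.71 and 6.62 in controls. The low MPTP and acupoint mice were below both controls, as for Folr1, and Otx2 was lowest in acupoint mouse 2.

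Because the 9 genes separated the arrays alike, promoters were examined. RefSeq's promoter table (build GRCm38.p6, 250 bases before to 50 after a gene start) was searched without the windows of 1 chromosome, so genes on it could not appear. The part searched held 8 windows for 5 of the genes: Kcnj13, Kl, Aqp1, Slc4a5 and, with several starts, Otx2. The motifs searched on both strands were TAATCC, the core that OTX-class homeobox proteins bind, CCAAT, and TATAA. The following 3 windows are shown because they hold matches in the gene with the widest range, in another ion transporter, and in Otx2 itself. Other Otx2 windows with matches to CCAAT or TATAA are not shown. Capitals mark matches to any of the 3 motifs on either strand. On the minus strand of chromosome 1, the Kcnj13 window is chr1:87394680-87394979. The Slc4a5 window is on the plus strand of chromosome 6, chr6:83237125-83237424, and the Otx2 window is on the minus strand of chromosome 14, chr14:48665060-48665359.
Kcnj13: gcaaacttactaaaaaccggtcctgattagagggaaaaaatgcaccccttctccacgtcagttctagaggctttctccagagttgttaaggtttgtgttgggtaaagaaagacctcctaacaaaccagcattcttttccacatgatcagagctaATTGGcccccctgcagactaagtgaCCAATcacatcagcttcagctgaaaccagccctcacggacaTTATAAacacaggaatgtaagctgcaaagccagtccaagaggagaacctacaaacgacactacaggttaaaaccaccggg
Slc4a5: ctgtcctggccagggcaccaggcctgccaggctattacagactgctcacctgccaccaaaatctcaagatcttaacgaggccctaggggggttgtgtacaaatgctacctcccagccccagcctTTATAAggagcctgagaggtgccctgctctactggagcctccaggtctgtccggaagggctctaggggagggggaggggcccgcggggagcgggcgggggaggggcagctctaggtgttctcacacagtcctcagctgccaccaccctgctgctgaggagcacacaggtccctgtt
Otx2: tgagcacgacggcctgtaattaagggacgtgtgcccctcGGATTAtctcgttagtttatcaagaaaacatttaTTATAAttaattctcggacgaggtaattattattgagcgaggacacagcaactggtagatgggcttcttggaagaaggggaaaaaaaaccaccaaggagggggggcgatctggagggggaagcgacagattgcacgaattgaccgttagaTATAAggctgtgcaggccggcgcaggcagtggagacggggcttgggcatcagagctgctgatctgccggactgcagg

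TAATCC was present in 1 of the 8 windows, that of Otx2 shown above, where it reads GGATTA on the printed strand, against 7.06% of the 32851 windows searched. CCAAT was present in 2 of 8, 1 of Kcnj13 and 1 of Otx2, against 37.4% of all windows searched. TATAA was present in 4 of 8, those of Kcnj13 and Slc4a5 and 2 of Otx2, against 24.9%, and TTATAA matches it on both strands at once. A match is a run of letters in this window and describes neither binding nor a cause.

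Set against the other genes, the 9 varied far more between arrays than most. The range of a probe set over the 8 arrays had a median of 0.43 among the 16342 tested, and 1.30% of them had a range of 2 or more, which all 9 genes had. Kcnj13 had the largest range of all, 5.89, and Ttr the next, 5.37. Sostdc1 (3.78) and Kl (3.62) ranked 15 and 18, Slc4a5 (2.63) ranked 77, Otx2 (2.36) 114, Folr1 (2.23) 144, Clic6 (2.10) 172 and Aqp1 (2.08) 177. These ranges describe the arrays and were not tested, since the genes were chosen with earlier results of these data known.

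**Figure D2:**
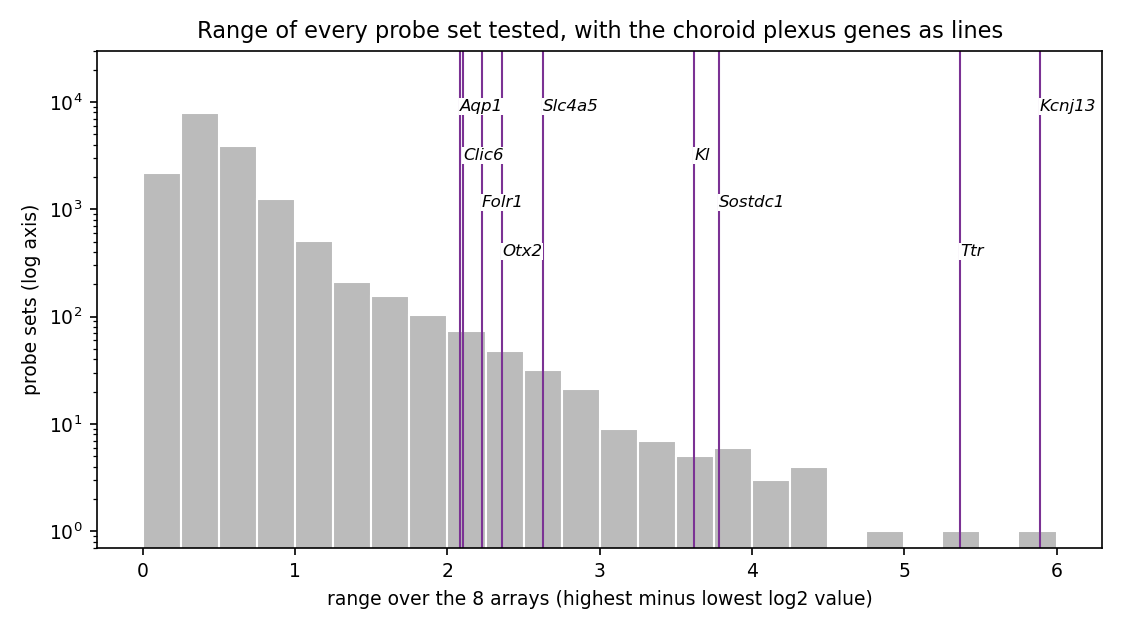
Number of probe sets (y axis, log scale) by the range of their log2 values over the 8 arrays (x axis), for the 16342 probe sets tested, with a line at the range of each of the 9 choroid plexus genes. Kcnj13 at 5.89 and Ttr at 5.37 lie to the right of all other probe sets, and the lowest, Aqp1, lies at 2.08.

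Much of this range lay between mice of the same group. Mouse 1 exceeded mouse 2 for all 9 genes in the MPTP group, by 0.78 (Clic6) to 5.27 (Ttr) with a median of 1.98, and 8 of the 9 differed by 1 or more, where 5.07% of all probe sets did. In the acupoint group mouse 1 was also higher for all 9 genes, by 1.19 (Aqp1) to 4.64 (Kcnj13) with a median of 1.86, and all 9 differed by 1 or more, against 0.441% of all probe sets. The non-acupoint mice were closer to each other. There mouse 2 was the higher one for all 9 genes, by 0.29 (Ttr) to 0.94 (Kcnj13), and 0 differed by 1 or more, against 0.367% of all probe sets. Between the controls the difference was 0.08 (Kl) to 0.40 (Aqp1) in size, with 0 of 9 at 1 or more and 0.00612% of all probe sets. Mouse numbers are names and carry no order.

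The high arrays also had an order. Non-acupoint mouse 2 was the highest array for all 9 genes. The order of the remaining high arrays differed between genes: MPTP mouse 1 was lowest of them for Clic6 and Sostdc1, acupoint mouse 1 for Folr1 and Aqp1, and non-acupoint mouse 1 for Ttr, Kl, Kcnj13, Slc4a5 and Otx2. MPTP mouse 2 was the lowest of all 8 arrays for 6 genes, the exceptions being Kl, Clic6 and Otx2.

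MPTP alone was compared with saline to ask whether the toxin moved these genes. Means of all 9 genes were higher in the MPTP group, with a median log2 change of 0.77 against 0.01 over all probe sets, and the values of MPTP mice and controls overlapped for 7 of them. Clic6 averaged 8.10 ± 0.55 in MPTP mice and 7.60 ± 0.11 in controls (SD, n = 2 each), and Kl 7.19 ± 1.92 and 5.59 ± 0.06. These 2 genes had groups that did not overlap, as did 17.3% of all probe sets on the higher side. For Clic6 the separation was small, with 7.72 in MPTP mouse 2 and 7.68 in the higher control. Limma called 0 of the 9 genes (0% of all probe sets, adjusted p from 0.93 to 0.94), with 0 at an unadjusted p under 0.05, where 3.99% of all probe sets were. The 95% intervals were wide: Kcnj13, at 2.20, had an interval of -2.21 to 6.62, and Clic6, at 0.51, of -0.70 to 1.72. Leaving out MPTP mouse 1 gave a median of -0.30, with Ttr at -0.64 and Kcnj13 at -0.33. Leaving out MPTP mouse 2, so that MPTP mouse 1 alone stood for the group, gave a median of 1.76, with Ttr at 4.63.

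Acupoint needling with MPTP was compared with saline next. Again all 9 means were higher, with a median log2 change of 1.06 against -0.02 over all probe sets. The groups did not overlap for 5 genes, Ttr, Kcnj13, Kl, Slc4a5 and Clic6, and 12.7% of all probe sets did the same on the higher side. Of these 5, Slc4a5 passed the filter only through its high arrays. For Clic6 the separation was small, 7.68 in both acupoint mouse 2 and the higher control when rounded. Ttr averaged 11.70 ± 2.44 in acupoint mice and 8.75 ± 0.17 in controls, a log2 change of 2.95 with an interval of -1.07 to 6.96. Kcnj13 averaged 7.91 ± 3.28 in acupoint mice and 5.39 ± 0.08 in controls, a change of 2.52 with an interval of -1.89 to 6.94. None of the 9 was called by limma (0% of all probe sets, adjusted p = 1.00 for each), and 0 had an unadjusted p under 0.05, against 1.91% of all probe sets. The median was 0.08 without acupoint mouse 1 and 1.77 without acupoint mouse 2.

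Non-acupoint needling with MPTP against saline was the only one of the 7 comparisons in which all 9 genes had groups that did not overlap. All 9 were higher, with a median log2 change of 2.06 against 0.01 over all probe sets, and 26.9% of all probe sets did not overlap on the higher side. Kcnj13 averaged 10.48 ± 0.67 in non-acupoint mice and 5.39 ± 0.08 in controls, a log2 change of 5.09 (SE 1.86, interval 0.67 to 9.50). Ttr averaged 13.34 ± 0.20 and 8.75 ± 0.17, a change of 4.59 (SE 1.69, interval 0.57 to 8.60). The other secreted products followed, Kl with a change of 3.18 (SE 1.06) and Sostdc1 with 2.80 (SE 1.10). Slc4a5 was at 2.06 (SE 0.69), Folr1 at 1.81 (SE 0.72), Clic6 at 1.74 (SE 0.51) and Aqp1 at 1.51 (SE 0.59). Each of these 8 genes had an unadjusted p under 0.05, as did 6.05% of all probe sets in either direction. Slc4a5 is counted among the 8, and among the 9 that did not overlap, although it passed the filter only through its high arrays. Otx2, at 1.59 (SE 0.73), had an interval of -0.13 to 3.31.

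Limma called 0 of the 9 in this comparison either (0% of all probe sets, adjusted p = 0.77 for each). The standard errors here are shared by all groups, and so include the spread of the MPTP and acupoint mice. When only the non-acupoint and control arrays entered the fit, the changes were the same and Ttr and Kcnj13 were called (adjusted p = 0.0011 and 0.023 by limma). They were then the 2 probe sets called of 16342. That fit leaves out the MPTP and acupoint pairs, whose mice differed by 5.27 and 3.45 for Ttr and by 5.07 and 4.64 for Kcnj13. Its spread comes only from the 2 groups whose mice were alike in these genes, so it can understate how far mice of 1 group differ. The non-acupoint values of Ttr also lay close to the top of the scale. Leaving out any 1 of these 4 arrays from the fit over all groups gave changes of 4.45 to 4.73 for Ttr and 4.62 to 5.56 for Kcnj13, with between 0 and 3 of the 9 genes at an unadjusted p under 0.05.

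**Figure D3:**
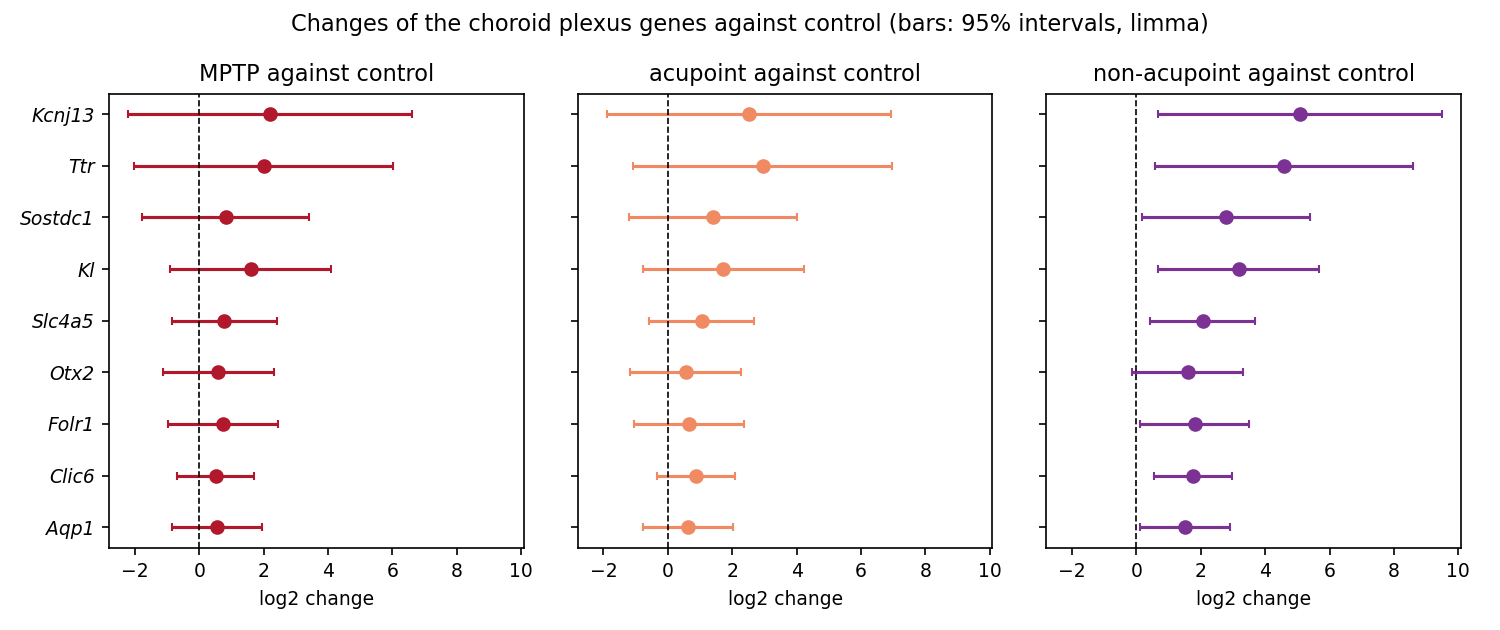
Log2 changes (x axes) of the 9 choroid plexus genes (rows) in MPTP, acupoint and non-acupoint mice against controls, with 95% intervals from limma over all 8 arrays. In the MPTP and acupoint panels every interval includes 0, and in the non-acupoint panel only the interval of Otx2 does.

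The needled groups were compared with MPTP alone, and with each other, to ask whether needling or its site mattered. These comparisons share arrays with those above. Acupoint against MPTP gave a median log2 change of 0.29, with 7 means higher and Folr1 (-0.08) and Otx2 (-0.03) lower, and -0.04 over all probe sets. The groups overlapped for all 9 genes, while 8.41% of all probe sets did not overlap on the higher side and 18.9% on the lower side. Limma called 0 of the 9 (0% of all probe sets, adjusted p from 0.92 to 1.00) and 0 had an unadjusted p under 0.05, against 3.6% of all probe sets. Its interval for Ttr, -3.07 to 4.96 around a change of 0.95, covers large differences in both directions. The median was 1.28 without MPTP mouse 1 and 1.18 without acupoint mouse 2, but -0.92 without MPTP mouse 2 and -0.85 without acupoint mouse 1.

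Non-acupoint against MPTP gave higher means for all 9 genes, with a median of 1.29 against -0.0067 over all probe sets. The groups did not overlap for Clic6 and Sostdc1, and neither did those of 15.4% of all probe sets on the higher side. The Clic6 means were 9.34 ± 0.39 in non-acupoint mice and 8.10 ± 0.55 in MPTP mice. Their difference, 1.24 (SE 0.51), was the only one of the 9 with an unadjusted p under 0.05, where 6.58% of all probe sets were. No gene was called by limma (0% of all probe sets, adjusted p from 0.74 to 0.78). The median ranged between 0.22 without MPTP mouse 2 and 2.28 without MPTP mouse 1.

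Acupoint against non-acupoint gave lower means for all 9 genes, with a median of -1.16 against -0.03 over all probe sets. The groups did not overlap for Folr1, at 7.20 ± 1.24 in acupoint mice and 8.36 ± 0.25 in non-acupoint mice, and for Aqp1, at 6.49 ± 0.84 and 7.37 ± 0.39, while 24.6% of all probe sets did not overlap on the lower side. Limma called 0 of the 9 (0% of all probe sets, adjusted p = 0.96 for each), with 0 at an unadjusted p under 0.05, against 3.22% of all probe sets. Without acupoint mouse 2 the median was -0.10, and without acupoint mouse 1 it was -2.03.

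With all 6 MPTP-treated mice set against the 2 controls, the 9 means were higher with a median log2 change of 1.30, where the median of all probe sets was -0.00034. Kl, at 2.17 (SE 0.86), and Clic6, at 1.05 (SE 0.42), were the 2 genes with groups that did not overlap, against 3.72% of all probe sets on the higher side. They were also the 2 with an unadjusted p under 0.05, where 3.38% of all probe sets were. The Clic6 groups were barely apart, with 7.680 in acupoint mouse 2 and 7.677 in the higher control. None of the 9 was called by limma (0% of all probe sets, adjusted p = 0.98 for each). Without MPTP mouse 1 the median was 0.97, with Ttr at 2.30, Kcnj13 at 2.43, Kl at 1.71 and Clic6 at 0.92. Over all fits without 1 mouse the median lay between 0.97 and 1.63.

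Genes outside these 9 were searched for the same pattern. Likeness was measured as the root mean square distance between a gene's log2 values, centred on their mean over the 8 arrays, and the mean of the 9 centred patterns, so that a small distance means a like shape and a like size. Among the 9 themselves Sostdc1 (0.19) and Kl (0.22) were nearest and Ttr (1.01) and Kcnj13 (1.18), with their larger ranges, farthest, while the median of all probe sets was 1.33. The 10 nearest other genes had distances of 0.24 to 0.49, and all 10 stood in a list of other choroid plexus epithelium genes. The nearest was F5, which encodes coagulation factor V, with log2 values of 7.14 and 5.17 in MPTP mice, 7.27 and 5.39 in acupoint mice, 7.17 and 8.15 in non-acupoint mice and 5.05 and 5.16 in controls. Next came Cldn2, a tight-junction claudin of leaky epithelia (0.25), Kcne2, a potassium channel subunit (0.35), Slc2a12, a glucose transporter (0.37), and Ecrg4, which encodes a secreted peptide precursor (0.38). They were followed by the metalloreductase gene Steap1 (0.38), the calmodulin-like gene Calml4 (0.47), the retinol dehydrogenase gene Rdh5 (0.47), the retinoid transporter gene Abca4 (0.48) and Igfbp2, which encodes an insulin-like growth factor binding protein (0.49). The distances describe 8 arrays that share their group structure and normalisation. The list was chosen with earlier results of these data known, so finding all 10 in it is no independent check. In F5, Cldn2 and Steap1 both controls lay under the filter value of 5.25, so these genes were tested only because of their high arrays.

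The whole list of other choroid plexus genes held 49 symbols, of which 45 had a probe set and 42 were tested. In 36 of the 42 the same 4 arrays were highest as in the 9 genes, where 7.71% of all probe sets had this pattern. The list mean relative to controls was 0.85 and -0.09 in MPTP mice, 0.96 and -0.02 in acupoint mice, and 0.78 and 1.31 in non-acupoint mice. For non-acupoint mice against controls, all 42 means were higher, with a median log2 change of 1.03, and 0 were called by limma. Groups did not overlap on the higher side for 39 of the 42 (26.9% of all probe sets), and 21 had an unadjusted p under 0.05 (6.05% of all probe sets). In F5, Steap1 and Cldn2 both controls lay under the filter value of 5.25, so these 3 genes were tested only because of their high arrays. Of the other 39 genes, 33 had the same 4 highest arrays, 36 did not overlap on the higher side and 19 had an unadjusted p under 0.05, with a median of 0.99. F5 had the largest difference, 2.55 (SE 0.78), then Cldn2 at 2.23 (SE 0.88), Kcne2 at 2.13 (SE 0.80) and Ecrg4 at 2.07 (SE 0.76). The 6 genes with another order of arrays, named after their values were seen, were Car12, Slc22a8, Vat1l, Col8a2, Bmp7 and Clu, with ranges of 0.22 to 0.99. Clu, which encodes the secreted chaperone clusterin and is also made by astrocytes, differed by 0.11 between non-acupoint mice and controls.

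The pathways in which the 10 genes act were followed through 7 further lists. Of 31 other ion and water transport genes tested, 26 had higher means in non-acupoint mice than in controls (51.2% of all probe sets), with a median log2 change of 0.15. An unadjusted p under 0.05 was found for 5 of them (6.05% of all probe sets), and 0 were called. Kcne2 was among them, and Slc4a2, an anion exchanger, had log2 values of 8.68 and 7.53 in MPTP mice, 8.28 and 7.53 in acupoint mice, 8.19 and 8.82 in non-acupoint mice and 7.55 and 7.42 in controls. Slc4a2 thus had the same high and low arrays. Car4, a membrane carbonic anhydrase, had 9.59 in MPTP mouse 1 and 7.47 to 8.06 in the other 7 arrays. Atp1b1, which encodes a sodium pump subunit, had a range of 0.48.

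Of 16 genes of thyroid hormone and retinol handling, the cargo of transthyretin, 6 had higher and 10 lower means in non-acupoint mice than in controls, with a median of -0.07. Rdh5, which also stands in the choroid list, differed by 1.70 (SE 0.72), with the same 4 highest arrays. Crym, which encodes a thyroid hormone binding protein, had 6.71 in MPTP mouse 1 and 8.64 to 10.17 in the other arrays. Aldh1a1, a retinaldehyde dehydrogenase gene, had 11.43 in MPTP mouse 1 and 9.47 to 10.67 elsewhere. In 15 folate genes the median was 0.15 and the largest range 1.00, and Slc46a1, the proton-coupled folate transporter, had a range of 0.61 against 2.23 for Folr1. In 11 genes of klotho and mineral hormone signalling the median was 0.04 and no range exceeded 0.71, that of the phosphate transporter gene Slc20a1. Genes of lysophosphatidic acid signalling, in which Enpp2 acts, had a median of 0.01 over 15 tested. BMP and Wnt genes, the partners of Sostdc1, had a median of 0.13 over 19, with 13 means higher and 6 lower. Dkk3, of widest range there, was at -0.64 (SE 0.50), and Bmp5, a BMP ligand, at 0.49 (SE 0.21). Frzb was at -0.17 (SE 0.17) and Bmp2 at 0.36 (SE 0.22). The 11 tested factors of the dorsal midline and OTX family had a median of -0.01, with 4 means higher and 7 lower. Emx2 and Rfx3, of widest range there, were at -0.04 (SE 0.26) and 0.12 (SE 0.29). Msx1, a homeobox factor of the choroid plexus, was at 0.64 (SE 0.15). Otx1, the paralogue of Otx2, averaged 6.29 ± 0.01 in non-acupoint mice and 6.29 ± 0.05 in controls. Limma called 0 genes of these 7 pathway lists in that comparison.

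Markers of other tissues were measured in the same arrays. Ependymal cells line the ventricles beside the choroid plexus. The 11 of their 12 markers that were tested averaged -0.38 and -0.28 in MPTP mice relative to controls, 0.11 and -0.09 in acupoint mice and 0.12 and 0.36 in non-acupoint mice, and 0 of the 11 had the 4 highest arrays of the choroid plexus genes. MPTP mouse 1, high in all 9 choroid plexus genes, was thus the lowest array for the ependymal mean. Meningeal and stromal markers, which include fibroblast genes of the choroid plexus stroma, averaged 0.38 and -0.23 in MPTP mice, 0.13 and -0.22 in acupoint mice and 0.02 and 0.32 in non-acupoint mice. Of these 12, Ogn, Lum and Dcn, which encode small matrix proteoglycans, had the same 4 highest arrays, as did 7.71% of all probe sets. In Lum both controls lay under the filter value of 5.25, so it was tested only because of its high arrays. Without Lum, 2 of 11 had that pattern, Ogn and Dcn. Ogn also lay under 5.25 in MPTP mouse 2 (4.61), acupoint mouse 2 (4.90) and control mouse 1 (4.94), so it too passed through its high arrays.

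Thalamus markers averaged 2.49 and -0.56 in MPTP mice, 0.72 and -0.10 in acupoint mice and 0.18 and 1.53 in non-acupoint mice. Of these 11 markers, 5 shared the 4 highest arrays of the choroid plexus genes, a larger share than the 7.71% of all probe sets. Medium spiny neuron markers averaged -2.14 and 0.36 in MPTP mice, -0.15 and 0.25 in acupoint mice and -0.17 and -0.68 in non-acupoint mice. Both lists were near the controls in non-acupoint mouse 1, where the 9 choroid plexus genes averaged 2.38 above the control mean. The 9 averaged 2.42 in MPTP mouse 1, 2.57 in acupoint mouse 1 and 3.03 in non-acupoint mouse 2, and -0.25 and 0.18 in MPTP mouse 2 and acupoint mouse 2. The part of these neighbouring tissues in the results was not tested. List means of blood (3 of 10 tested), endothelial, astrocyte, oligodendrocyte and microglia markers stayed between -0.39 and 0.24 in every array. Septum and pallidum markers averaged -0.78 to 0.17 over the 6 MPTP-treated mice, hypothalamus markers -0.24 to 0.44 and cortical neuron markers -0.73 to 0.05.

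**Figure D4:**
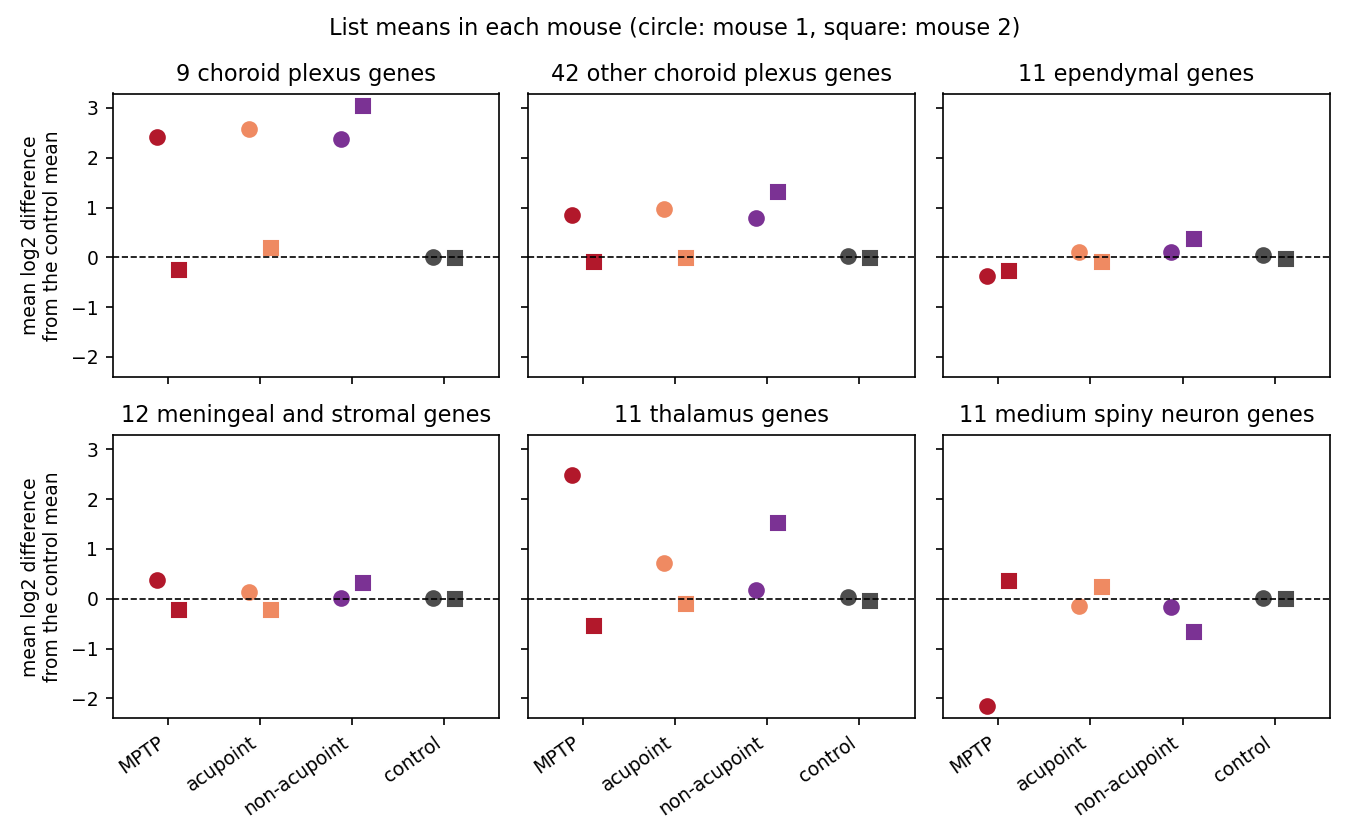
Mean log2 difference from the control mean (y axes) of 6 gene lists in the 2 mice of each group (x axes), with circles for mouse 1 and squares for mouse 2. The 9 and the 42 other choroid plexus genes are high in the same 4 arrays, the ependymal mean is lowest in MPTP mouse 1, and the thalamus and medium spiny neuron means move apart most in MPTP mouse 1.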

How the data were processed

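The labels' protocols give 300 ng of total RNA per array. The log2 values are the authors' deposited RMA summaries, made with Affymetrix Expression Console per the submitters' processing notes, 1 per probe set and array. Array medians lay between 6.02 and 6.12, and nothing was rescaled. Of 35557 probe sets, 21789 had 1 symbol, 1621 several and 12147 none in the platform's annotation, and 21698 of the first kind matched a RefSeq gene ID (GRCm38.p6), with 0 symbols updated. Tested were the 16342 probe sets (14890 genes, with all 9 choroid plexus genes) that had 1 symbol and a mean of 5.25 or more, which is the 25th percentile. One limma model (version 3.58.1, R 4.3.3, lmFit and eBayes) held the 4 groups, with 4 residual and 2.94 prior degrees of freedom. Benjamini-Hochberg adjustment ran over all probe sets in each of 7 comparisons, and a call needs an adjusted p under 0.05. Changes are log2 differences of group means, with 95% intervals from the model. For single values, no two-sided exact permutation p under 0.333 is possible with 2 mice a side. Each array is labelled as a different mouse, and precision is set by having 2 per group. Each list used the brightest probe set of a gene.

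The genes named are the 9, the 10 nearest patterns (gene models, chemosensory receptors and small RNAs left out), up to 4 genes of widest range per list and the brightest of each pathway list, plus defining markers. Members, lists and rules were chosen with earlier results of these data known. Alternatives changed the filter, shrinkage, scaling, array weights or arrays fitted, added mouse number to the model, or left out 1 mouse.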

Additional observations from a re-analysis of the deposited data

How the results depend on the processing

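Precision is limited by having 2 mice per group, and the 4 groups share their spread, so the MPTP and acupoint mice widen every interval. Where 1 mouse of a group is left out, the lone array is assumed to vary like the other groups. Counts at an unadjusted p under 0.05 from such fits, and from all other alternatives below, lack the share of all probe sets beside them. They show only how far the counts move. Filtering at the median left 7 of the 9 genes. Scaling moved the median of all probe sets by less than 0.1 in every comparison. Over the 63 changes of single genes, 605 of 607 values under alternatives other than leaving out a mouse kept their direction and their side of the threshold, 0 reversed, and 2 passed it (Ttr and Kcnj13 in non-acupoint mice against controls, with only those arrays in the model).

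Several counts moved. With only the groups compared in the model, acupoint against control had 2 of the 9 genes at an unadjusted p under 0.05 (against 0) and 1 probe set of all called, and non-acupoint against control had 2 of the 9 called, which were the 2 of all probe sets. With array weights, acupoint against control had 1 gene at an unadjusted p under 0.05, non-acupoint against MPTP 0 (against 1), and all MPTP-treated mice against control 8 (against 2) with 1 probe set called. With robust shrinkage these counts were 5 in non-acupoint against control (against 8), 0 in non-acupoint against MPTP and 0 for all MPTP-treated mice. The filter at the median gave 0 in non-acupoint against MPTP, and no filter or median centring gave 4 each for all MPTP-treated mice. The cause of these moves was not tested, apart from the genes and arrays that each alternative leaves out.

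Mouse numbers did not pair the samples: deviations of same-numbered mice correlated at -0.49 to 0.40 over the 6 pairs of groups. With mouse number as a replicate block, 5 of the 9 genes were at an unadjusted p under 0.05 for all MPTP-treated mice against control, and 0 of the 9 were called in any comparison.

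Leaving out 1 mouse at a time moved the count of the 9 genes at an unadjusted p under 0.05 between 0 and 6 in MPTP against control, 0 and 4 in acupoint against control, 0 and 3 in non-acupoint against control, 0 and 2 in acupoint against MPTP, 0 and 9 in non-acupoint against MPTP, 0 and 6 in acupoint against non-acupoint, and 0 and 9 for all MPTP-treated mice. Between 0 and 1 of the 9 was called in MPTP against control. The probe sets called numbered 0 to 1607 in MPTP against control, 0 to 1453 in acupoint against MPTP, 0 to 794 in non-acupoint against MPTP and 0 to 70 for all MPTP-treated mice, in each case with the highest count without MPTP mouse 2.

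In 22 of the 63 gene results a change turned its sign when 1 mouse was left out. In MPTP against control the values ran from -0.33 to 4.74 for Kcnj13, -0.58 to 2.21 for Sostdc1, -0.30 to 1.48 for Otx2, -0.64 to 4.63 for Ttr, -0.30 to 1.41 for Aqp1, -0.22 to 1.76 for Slc4a5 and -0.23 to 1.71 for Folr1, the negative ones without MPTP mouse 1. In acupoint against control they ran from -0.038 to 2.83 for Sostdc1, -0.37 to 1.49 for Otx2 and -0.22 to 1.53 for Folr1. All 9 turned in acupoint against MPTP: Kcnj13 -2.22 to 2.85, Sostdc1 -0.85 to 2.02, Otx2 -0.96 to 0.90, Clic6 -0.42 to 1.18, Ttr -1.69 to 3.58, Kl -1.24 to 1.48, Aqp1 -0.78 to 0.93, Slc4a5 -0.70 to 1.28 and Folr1 -1.05 to 0.89. Ttr ran from -0.043 to 5.22 in non-acupoint against MPTP and from -3.37 to 0.081 in acupoint against non-acupoint, where Sostdc1 ran from -2.83 to 0.038. No change of the 9 genes reversed in non-acupoint against control.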

Other observations

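Some choroid plexus genes were too dim to be tested but showed the same high and low arrays. Tc2n, whose product holds C2 domains, had log2 values of 4.81 and 3.39 in MPTP mice, 5.18 and 3.16 in acupoint mice, 4.78 and 6.34 in non-acupoint mice and 3.74 and 3.54 in controls. Slco1a5, an organic anion transporter gene, had 5.40 and 4.31 in MPTP mice, 5.57 and 4.17 in acupoint mice, 5.43 and 6.14 in non-acupoint mice and 4.55 and 4.55 in controls. Both were highest in non-acupoint mouse 2, like the 9 genes described above. Wfikkn2, which encodes a secreted protease inhibitor, had a smaller range, from 4.85 in MPTP mouse 2 to 5.37 in non-acupoint mouse 1.

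The 4 genes of widest range among 11 hypothalamus markers, a tissue that also borders a ventricle, are all peptide genes, and 1 of them, Gal, had the same 4 highest arrays as the 9 genes. Pmch, which encodes melanin-concentrating hormone, had log2 values of 8.89 and 4.11 in MPTP mice, 4.66 and 6.16 in acupoint mice, 4.73 and 8.27 in non-acupoint mice and 4.48 and 4.39 in controls. Both controls lay under the filter value, so Pmch was tested only because of its high arrays. Hcrt, the hypocretin gene, had 8.88 and 5.76 in MPTP mice, 5.56 and 6.03 in acupoint mice, 5.68 and 6.63 in non-acupoint mice and 5.90 and 5.65 in controls. Oxt, the oxytocin gene, was highest in the non-acupoint mice, at 9.23 and 8.11, against 7.10 and 7.33 in MPTP mice, 7.22 and 7.82 in acupoint mice and 7.81 and 7.76 in controls. Gal, the galanin gene, had 5.87 and 4.84 in MPTP mice, 5.98 and 5.40 in acupoint mice, 6.34 and 6.08 in non-acupoint mice and 5.71 and 5.57 in controls. Among the 11 markers Gal was the only one with those 4 highest arrays, and 1 of 11 is near the share of all probe sets, 7.71%.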
